A study of Mus musculus with 4 samples.

Results

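The genes described here encode the proteins of the cytosolic ribosome. They were taken by symbol alone, as every row of the expression tables named Rpl or Rps followed by a number and at most the letter a, l or x, together with Rplp0, Rplp1, Rplp2 and Rpsa. No expression value entered this choice. It gave 80 of the 26041 gene symbols in the tables, 49 of the large subunit and 31 of the small subunit, and the same 80 were present in the tables of both genotypes. Of these, 79 had at least 1 count in every library, and Rpl10 had none in the smallest library.

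The cells were tdTOMATO-positive cells sorted from the testes of mice aged 4 weeks that were either wild type for Plzf (Plzf +/+) or homozygous for the luxoid mutation of Plzf (Plzf lu/lu). PLZF, encoded by Zbtb16, is a transcription factor needed for the maintenance of spermatogonial stem cells. Mice of both genotypes carried the Eomes-tdTomato knock-in, so that the sort took cells in which the Eomes locus had driven the reporter, and differences from cells without the reporter cannot be read from these data. Single cells lay in the wells of 4 plates, and each count is a unique molecular identifier (UMI), 1 tag at the 3′ end of 1 captured transcript. Plates 1 and 2 held Plzf +/+ cells, plate 3 Plzf lu/lu cells and plate 4 both. The cells of 1 genotype on 1 plate are called a library here, which gives 3 Plzf +/+ and 2 Plzf lu/lu libraries. The labels name plates and no animals, so the p-values below measure the spread between libraries, which may be partly technical. Genotype and plate cannot be told apart except on plate 4.

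A ribosome holds 1 copy of nearly every one of these proteins, in a small subunit that reads the messenger RNA and a large subunit that joins the amino acids. The messenger RNAs of ribosomal proteins are among the most abundant of a cell, and many begin with a run of pyrimidines through which their translation is set together. In the male germ line the X chromosome is silenced during meiosis, and several X-linked genes, Rpl10 and Rpl39 among them, have autosomal copies that are used in spermatocytes and spermatids.

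The coding sequences of the X-linked genes and of their autosomal copies are shown because the UMIs of each pair are compared below. Rpl10 lies at chrX:74270816-74273135 and Rpl10l at chr12:66283379-66284401, while Rpl39 lies at chrX:37082518-37085222 and Rpl39l at chr16:10170197-10174911 (GRCm38.p6). Each line gives bases 1 to 150 of the coding sequence in the GENCODE vM1 models, 5′ to 3′, and capitals mark the bases that differ between the members of a pair.
Rpl10: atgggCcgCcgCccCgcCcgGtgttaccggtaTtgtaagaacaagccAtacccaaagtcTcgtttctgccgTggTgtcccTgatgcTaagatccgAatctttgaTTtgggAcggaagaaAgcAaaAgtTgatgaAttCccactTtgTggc
Rpl10l: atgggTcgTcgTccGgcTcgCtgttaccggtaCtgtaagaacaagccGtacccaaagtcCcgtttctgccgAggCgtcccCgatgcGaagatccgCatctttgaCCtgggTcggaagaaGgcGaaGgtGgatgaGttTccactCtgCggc
Rpl39: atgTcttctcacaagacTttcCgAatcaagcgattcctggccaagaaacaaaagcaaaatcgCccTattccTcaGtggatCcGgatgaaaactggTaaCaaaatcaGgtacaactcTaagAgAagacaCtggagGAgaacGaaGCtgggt
Rpl39l: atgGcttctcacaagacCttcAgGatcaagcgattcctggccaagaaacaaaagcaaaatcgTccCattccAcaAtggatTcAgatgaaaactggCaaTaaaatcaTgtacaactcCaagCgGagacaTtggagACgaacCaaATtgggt

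Over the whole coding sequence of 645 bases, Rpl10 and Rpl10l were 84.8% identical, and their proteins differed at 3 of 214 residues. Rpl39 and Rpl39l were 85.3% identical over 156 bases, with 3 of 51 residues different. Rps27 and Rps27l were 76.1% identical over 255 bases, with 3 of 84 residues different.

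The pyrimidine run was looked for in the RefSeq start windows of 60 members, as a C followed by at least 4 bases that are each C or T, on the transcribed strand and beginning within 10 bases of the annotated start on either side. It was present in 35 of 60 members (58.3%), in 29.8% of the 27025 genes in the same table and in 40.6% of 69 genes of the mitochondrial ribosome. The windows of the genes on which the results turn follow, each 30 bases long with 15 before the start, 5′ to 3′ on the strand of the gene, with every such run in capitals.
Rpl39, chrX:37085208-37085237, minus strand: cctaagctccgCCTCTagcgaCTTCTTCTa
Rpl39l, chr16:10170213-10170242, plus strand: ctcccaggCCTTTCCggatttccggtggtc
Rpl10l, chr12:66284387-66284416, minus strand: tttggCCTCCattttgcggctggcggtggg
Rps27l, chr9:66946071-66946100, plus strand: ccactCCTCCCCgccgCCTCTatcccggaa
Rps4x, chrX:102189377-102189406, minus strand: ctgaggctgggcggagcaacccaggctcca
Rpl41, chr10:128549154-128549183, minus strand: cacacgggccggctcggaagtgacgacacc

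The windows of Rpl39 and Rps27l hold 2 such runs, those of Rpl39l and Rpl10l 1, and those of Rps4x and Rpl41 none, which says only that these letters are not in these windows.

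The libraries held 317, 303 and 277 Plzf +/+ cells (plates 1, 2 and 4) and 314 and 38 Plzf lu/lu cells (plates 3 and 4), 1249 in all, with 254514 UMIs in the library of 38 cells and 2005033 to 2608702 in the others. Zbtb16, which carries the mutation, was at 77.0, 53.1 and 70.3 CPM (counts-per-million, UMIs scaled by the library's total) in Plzf +/+ and at 17.6 and 11.8 CPM in Plzf lu/lu. Dazl, a germ cell marker, had a UMI in 86.8% to 95.6% of the cells of a library. The summed level of 7 Sertoli cell markers ranged over 86.4 to 109 CPM in Plzf +/+ and came to 542 and 358 CPM in Plzf lu/lu, and that of 14 spermatid markers was 2015, 7391 and 6715 against 2651 and 7972 CPM. The lists are given again beside the comparisons of cell classes, and the genotype fits without the cells rich in either list beside the members called. The same well barcodes served every plate, so 358 of 376 barcodes occurred in 2 or more libraries, and the libraries of plate 4 shared 0.

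The 80 genes together took 7.68%, 6.77% and 7.33% of the UMIs in Plzf +/+ plates 1, 2 and 4, and 7.91% and 8.44% in Plzf lu/lu plates 3 and 4. Across single cells the share ran from 0.751% to 23.4%, with library medians of 7.32%, 7.29% and 8.21% in Plzf +/+ and 8.41% and 9.29% in Plzf lu/lu. In 5 equal groups of cells of all libraries ordered by UMIs, the median was between 7.27% and 8.19%, lowest in the deepest group. Within libraries, the Pearson r of the share with log10 UMIs was 0.003, -0.155 and -0.239 in Plzf +/+ plates 1, 2 and 4. It was -0.110 in both Plzf lu/lu libraries.

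Levels within the family were far apart. Because each transcript gives 1 tag at its 3′ end, the levels in CPM were not divided by length. Rpl32 was the highest, with 3296, 3008 and 3077 CPM in Plzf +/+ and 3561 and 3843 CPM in Plzf lu/lu. It was followed in mean CPM over the 5 libraries by Rps24 (3184 ± 168, SD, n = 5), Rplp1 (2993 ± 251), Rps14 (2746 ± 184) and Rplp2 (2691 ± 250), and these neighbours differ by about their spread between libraries. Rplp1 and Rplp2 form, with Rplp0, the stalk of the large subunit that recruits the elongation factors. At the other end stood Rpl10 (4.10 ± 2.69 CPM), Rpl3l (4.24 ± 2.74), Rps6 (10.9 ± 5.82), Rpl28 (11.9 ± 3.07), Rps27 (13.2 ± 5.80) and Rpl15 (18.05 ± 4.13). Rpl10 had 11, 7, 11, 18 and 0 UMIs and Rpl3l 11, 4, 4, 22 and 1 UMIs in the libraries in the order above, too few for any comparison. RPS6 is the protein that the S6 kinases phosphorylate, and Rpl3l is a muscle copy of Rpl3.

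In all, 33 members were at 1000 CPM or more, 24 at 100 to 1000 CPM and 23 under 100 CPM, with a median of 675 CPM, and 37 of the 100 highest symbols in the tables were members. The order of the members was shared by the libraries, with Pearson r of log2(CPM + 1) across the members between 0.977 and 0.996 for each pair of libraries. Members are not independent replicates, so this is a description. After each cell was thinned to 2000 UMIs (1167 cells, 82 shallower ones left out), the variance of a member over cells divided by its mean had a median of 1.59 over the 51 members with a mean of at least 0.5 UMIs, and of 1.17 over 570 other genes of that level. Rpl32 (2.64) and Rplp1 (2.52) were the most variable by this ratio and Rpl13 (1.04) the least, and the means of the 2 sets were not matched.

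**Figure D1:**
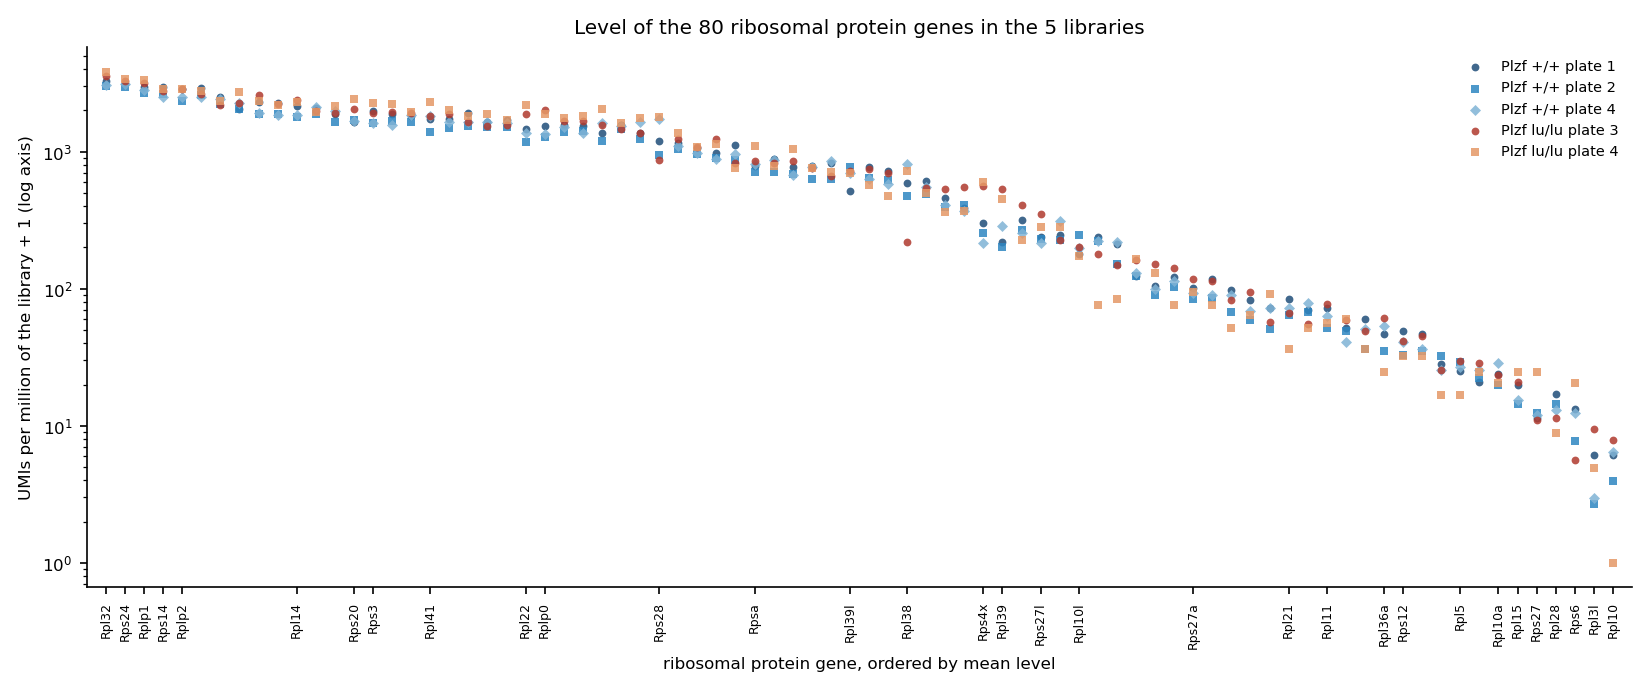
Level of each of the 80 ribosomal protein genes, in CPM plus 1 on a log axis, ordered by mean, with 1 point per library and symbols under some of the genes described in the text (Plzf +/+ plates 1, 2 and 4 in blues, Plzf lu/lu plates 3 and 4 in red and orange). The points of a gene lie close together for most genes, while genes range from Rpl32 at 3357 CPM down to Rpl10 at 4.10 CPM.

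A low count in these tables need not be a low level, because ribosomal protein genes have many processed copies in the genome. The tables themselves list 211 rows named after a member with the ending -ps, for 53 of the 80 members, and these rows held 11.8% of the UMIs of members and -ps rows together. In 13 members the -ps rows held more UMIs than the member. The largest shares were those of Rps6 (94.4%, 10.9 CPM in the gene and 140 CPM in its -ps rows), Rpl10a (92.2%, 22.4 and 258 CPM), Rpl21 (84.9%, 63.8 and 385 CPM), Rpl28 (82.4%, 11.9 and 64.3 CPM) and Rps12 (79.6%, 38.4 and 158 CPM).

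The 3′ ends of the members were therefore searched against the mouse genome. The last 300 bases of a transcript were read in windows of 60 bases, and a window counted as repeated where it was found without mismatch at another place. Of the 23 members under 100 CPM, 16 had at least 90% of their windows repeated, against 0 of the 32 members with a transcript at 1000 CPM or more. Taking the most repeated transcript of each gene, the counts were 20 of 23 and 3 of 32. The median level was 764 CPM in the 16 members with no repeated window, 1573 CPM in the 18 members under 50%, 1571 CPM in the 20 members between 50% and 90%, and 72.7 CPM in the 25 members at 90% or more. The relation was a step at the upper end rather than a steady slope, with a Spearman rho of -0.368 across 79 members. The genome at hand was of an older build (NCBIM37) than that of the counts (GRCm38), and how reads that match several places were counted is not given in the sources used here.

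Among the genes that the comparisons turn on, Rpl39l had 0% of its windows repeated, Rps27l 24.1%, Rpl10l 39.0%, Rpl39 52.3% and Rps4x 87.6%. For Rpl10, Rps27, Rpl36a and Rps6 it was 100%, so the levels of these genes, and of Rps4x, are uncertain to the extent that their reads were given to copies.

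**Figure D2:**
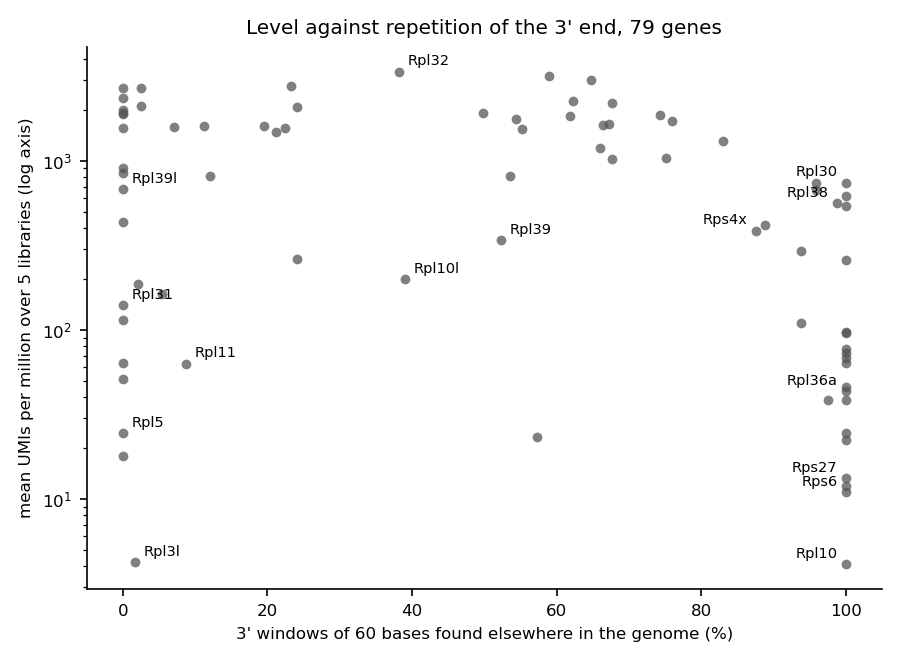
Mean level over 5 libraries (CPM, log axis) against the share of 3′ windows of 60 bases found elsewhere in the genome (%), 1 point per gene for 79 members. Genes at 1000 CPM or more all lie under 90%, and the 25 genes at 90% or more reach down to Rpl10 at 4.10 CPM.

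The first comparison asked which members differed between Plzf lu/lu and Plzf +/+ cells. Rps4x and Rpl39, which are both X-linked, were called higher in Plzf lu/lu and no member was called lower, by the edgeR quasi-likelihood test on UMIs summed per library with Benjamini-Hochberg adjustment over 13728 genes. These are 2 of 80 members, and DESeq2 called the same 2, with 0.976% of all genes. In the edgeR fit 0.816% of all genes were called in either direction, 0.583% higher and 0.233% lower.

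Rps4x, a protein of the small subunit, was at 301, 253 and 214 CPM in Plzf +/+ and at 561 and 597 CPM in Plzf lu/lu. Both Plzf lu/lu libraries lay far above the highest Plzf +/+ library. The log2 fold change was 1.22 (SE 0.159, edgeR adjusted p = 0.0204).

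Rpl39 encodes a small protein that lines the exit tunnel of the large subunit. It was at 219, 201 and 286 CPM in Plzf +/+ and at 532 and 448 CPM in Plzf lu/lu, again without overlap. The log2 fold change was 1.11 (SE 0.193, edgeR adjusted p = 0.0485), just past the threshold.

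Within plate 4, where both genotypes shared 1 plate, Rps4x had 152 UMIs in Plzf lu/lu and 430 in Plzf +/+ cells, or 597 against 214 CPM, a log2 ratio of 1.48 (95% interval 1.20 to 1.75). Rpl39 had 114 and 573 UMIs, or 448 against 286 CPM, a log2 ratio of 0.65 (0.35 to 0.94). These exact intervals cover counting error only, since plate 4 held 1 library of each genotype. Both genes were thus higher in Plzf lu/lu within the plate as well.

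Rps7 and Rps13, proteins of the small subunit, went the other way without passing the test. Rps7 was at 239, 221 and 222 CPM in Plzf +/+ and at 177 and 74.7 CPM in Plzf lu/lu (log2 fold change -0.66, edgeR adjusted p = 0.398), and Rps13 at 213, 150 and 218 against 148 and 82.5 CPM (-0.60, adjusted p = 0.408). Both Plzf lu/lu libraries lay below every Plzf +/+ library in both genes. Within plate 4 Rps7 had 19 UMIs in Plzf lu/lu and 445 in Plzf +/+ cells, a log2 ratio of -1.57 (95% interval -2.32 to -0.91), and Rps13 had 21 and 437 (-1.40, -2.11 to -0.77). Without a filter on low counts both were called lower (edgeR adjusted p 0.0149 and 0.0470) and 4 members higher, of 80, where 0.933% of all genes were called lower and 1.33% higher.

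Both calls were lost with any library left out other than Plzf +/+ plate 1. Nearly every call over all genes was lost in these fits too. Of all genes 0.00750% were called without Plzf +/+ plate 2 and 0.00736% without Plzf +/+ plate 4. Without Plzf +/+ plate 2, Plzf +/+ plate 4, Plzf lu/lu plate 3 or Plzf lu/lu plate 4, the adjusted p was 0.123, 0.157, 0.344 and 0.128 for Rps4x and 0.212, 0.118, 0.381 and 0.158 for Rpl39, while the log2 fold changes stayed above 0.94 in all of these fits. Without Plzf +/+ plate 1, 12 of 79 members were called, all higher in Plzf lu/lu, where 5.35% of all genes were higher. With the UMIs of the -ps rows added to each member, Rpl39 was not called (adjusted p = 0.0563) and Rps4x was (0.0222). Sertoli transcripts moved with genotype too. Without the cells that held 3 or more UMIs of the Sertoli list after thinning (4 in each Plzf +/+ library, 22 and 3 in Plzf lu/lu), the log2 fold change was 1.27 for Rps4x (edgeR adjusted p = 0.0254) and 1.13 for Rpl39 (adjusted p = 0.0670), about as large as with them. Without the cells rich in spermatid transcripts, described below, it was 1.18 for Rps4x (edgeR adjusted p = 0.00226) and 1.06 for Rpl39 (adjusted p = 0.0240).

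The other X-linked members did not pass the test. Rpl36a was at 46.0, 34.1 and 52.9 CPM in Plzf +/+ and at 59.8 and 23.6 CPM in Plzf lu/lu (log2 fold change 0.17, edgeR adjusted p = 0.932). Its groups overlapped. Over the 561 X-linked genes tested, 12 were called higher and 3 lower, with a median log2 fold change of 0.12, against 0.00 over autosomal genes.

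The autosomal copies showed no such difference. Rpl39l was at 511, 769 and 694 CPM in Plzf +/+ and at 720 and 695 CPM in Plzf lu/lu (log2 fold change 0.15, SE 0.178, edgeR adjusted p = 0.810), and Rpl10l at 178, 247 and 196 against 200 and 173 CPM (-0.08, SE 0.176, adjusted p = 0.937). Rps27l, a copy of Rps27 that p53 is known to induce, was at 236, 231 and 213 against 348 and 283 CPM. Its groups did not overlap, but the difference did not pass the test (log2 fold change 0.55, SE 0.146, adjusted p = 0.150).

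Most members leaned upward without being called. The log2 fold change was above 0 in 60 and below 0 in 20 of the 80 members, with a median of 0.17, against a median of 0.00 over all 13728 genes, and 18 members had an unadjusted p under 0.05, where 14.2% of all genes did. Both Plzf lu/lu libraries lay above every Plzf +/+ library in 26 of 80 members against 16.01% of all genes, and below in 5 (Rps7, Rps13, Rpl24 and Rpl28 among them) against 18.5% of all genes. The large and the small subunit had medians of 0.17 each. Within plate 4 alone the ratio of CPM was above 1 in 47 and below 1 in 32 of the 79 members with UMIs in both libraries, with a median log2 ratio of 0.11. Of the 57 members at 100 CPM or more, 29 had a 95% interval of counting error above 0 and 5 below (median 0.16), where 18.8% and 12.7% of the 2219 genes of that level did (median 0.07).

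The members next to the threshold had high levels. Rpl22, an RNA-binding protein of the large subunit, was at 1473, 1184 and 1364 CPM in Plzf +/+ and at 1868 and 2173 CPM in Plzf lu/lu (log2 fold change 0.63, edgeR adjusted p = 0.0896). Rplp0, the base of the stalk, was at 1543, 1277 and 1337 against 2022 and 1874 CPM (0.54, adjusted p = 0.112). Rps20 was at 1648, 1689 and 1679 against 2046 and 2440 CPM (0.47, adjusted p = 0.128). These 3 genes and Rps27l did pass the test when the 24 cells with over 4 times the median UMIs were left out (adjusted p 0.0193 for Rpl22, 0.0386 for Rplp0, 0.0472 for Rps20 and 0.0291 for Rps27l), and also when every cell was thinned to 2000 UMIs (0.00737, 0.0150, 0.0379 and 0.00251). In these fits 6 of 80 and 6 of 74 members were called, all higher, where 2.71% and 2.06% of all genes were higher.

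Members with roles outside the ribosome were not called. Rpsa, also known as a laminin receptor, was at 780, 707 and 812 CPM in Plzf +/+ and at 859 and 1092 CPM in Plzf lu/lu (log2 fold change 0.38, edgeR adjusted p = 0.287). Rpl5 and Rpl11, which bind MDM2 when ribosome assembly fails, had log2 fold changes of 0.01 (SE 0.287) and 0.21 (SE 0.238). Rps19, mutated in Diamond-Blackfan anaemia, had 0.06 (SE 0.119), and Rps27a, made as a fusion with ubiquitin, 0.29 (SE 0.180). Rpl5, Rpl11 and Rps27a were low, at mean levels of 24.5, 63.1 and 97.4 CPM. Each has a coding transcript with 100% of its 3′ windows repeated, so their levels are uncertain as above.

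Rpl38 and Rps28 differed between plates of the same genotype. Rpl38 was at 595, 473 and 811 CPM in Plzf +/+ plates 1, 2 and 4, and at 217 and 719 CPM in Plzf lu/lu plates 3 and 4. Rps28 was at 1189, 948 and 1718 against 865 and 1792 CPM. In both genes the plate 4 libraries were the highest of their genotype. The log2 ratio of plate 4 to the other plates of the same genotype was 0.60 in Plzf +/+ and 1.73 in Plzf lu/lu for Rpl38, and 0.69 and 1.05 for Rps28. The transcripts of these genes are short (371 and 382 bases). Across the 56 members of 100 CPM or more with a transcript, this ratio had a Spearman rho with transcript length of -0.362 in Plzf +/+ and -0.353 in Plzf lu/lu, whose points share their libraries.

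**Figure D3:**
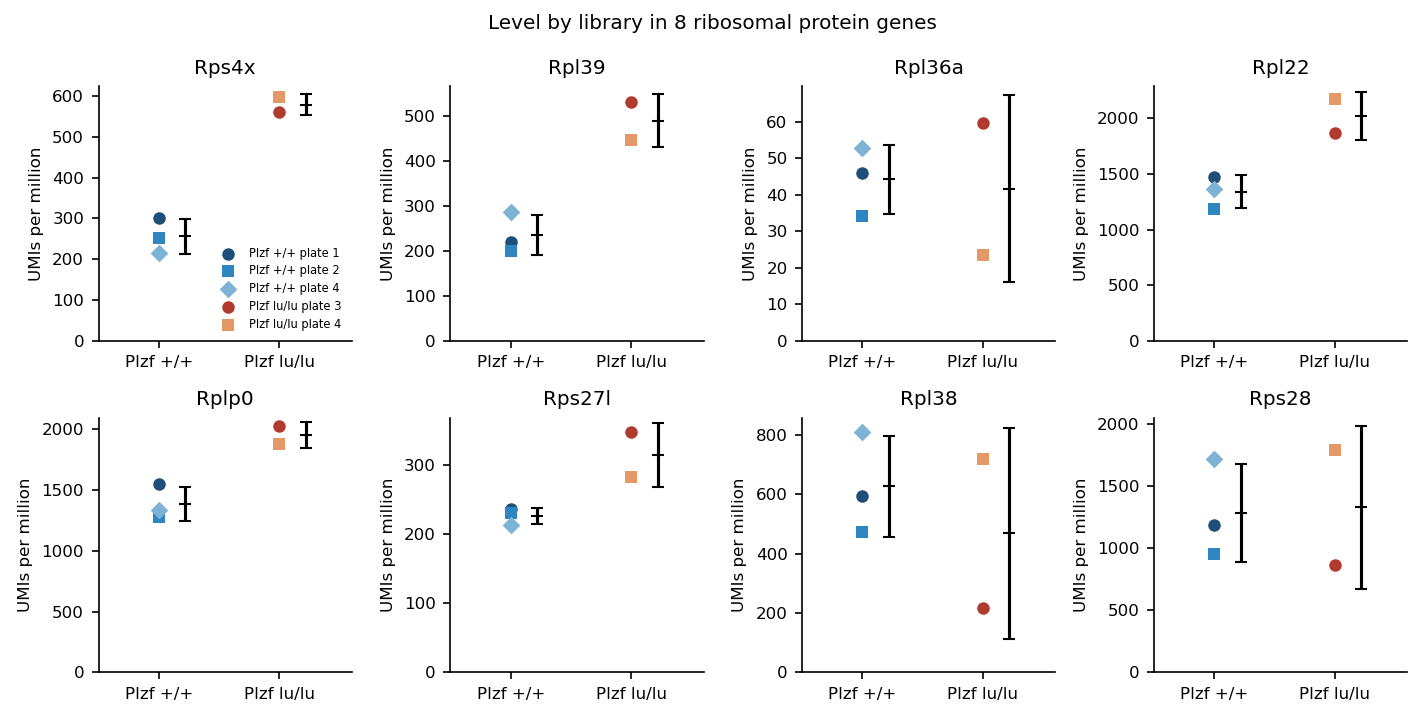
Level in CPM by library in 8 ribosomal protein genes, with the mean and SD of each genotype beside the points (n = 3 Plzf +/+ and n = 2 Plzf lu/lu libraries, axes from 0). The Plzf lu/lu points lie above all Plzf +/+ points for Rps4x (561 and 597 against at most 301) and Rpl39 (532 and 448 against at most 286), while Rpl36a, Rpl38 and Rps28 overlap.

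Of 154 -ps rows tested, 1 was called. Rps15a-ps8 was at 107, 106 and 134 CPM in Plzf +/+ and at 1059 and 1151 CPM in Plzf lu/lu, on plates 3 and 4 alike (log2 fold change 3.30, SE 0.160, edgeR adjusted p = 0.000301). The row is named after Rps15a, which was at 2078, 1881 and 2105 against 1975 and 1941 CPM (log2 fold change 0.00).

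The share of UMIs in all 80 genes was 7.26% ± 0.459 (SD, n = 3) in Plzf +/+ and 8.17% ± 0.373 (SD, n = 2) in Plzf lu/lu. The difference of 0.915 percentage points had an exact permutation p of 0.2 over the 10 ways to split the libraries, two-sided, where the smallest possible p is 0.1. Plzf lu/lu plate 3 lay above the Plzf +/+ libraries by less than the distance among these.

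Other genes of translation gave no call between genotypes. None of 41 translation factors (median log2 fold change 0.15), 36 ribosome assembly genes (0.18), 7 related symbols outside the naming rule (0.23) and 75 mitochondrial ribosomal protein genes (0.28, 69 above 0) passed the edgeR test. At an unadjusted p under 0.05 there were 6, 3, 3 and 27, against the 14.2% of all genes.

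The next comparisons were between classes of cells within the same libraries. Cells rich in spermatid transcripts were those in which 14 spermatid markers, such as the protamines, made up at least 0.5% of the UMIs. These were 86 of 1249 cells, 10, 30 and 24 in Plzf +/+ plates 1, 2 and 4 and 19 in Plzf lu/lu plate 3. The 3 such cells of Plzf lu/lu plate 4 were too few to enter. The class is a range of a score, not a cell type: 81 cells lay between 0.25% and 1%.

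In these cells the ribosomal protein genes were lower as a family. Of the 78 members tested, 35 fell and 0 rose by the edgeR test with the library as a block. Of these, 17 were of the large and 18 of the small subunit. In DESeq2 26 fell and 0 rose, where 5.82% of all genes were lower and 20.7% higher. In the edgeR fit 33.7% of all 11115 genes were called, 10.8% lower and 22.9% higher. The median log2 fold change was -0.54 over members and -0.14 over all genes. Lower CPM in 4 of 4 libraries was seen in 65 of 78 members and in 39.6% of all genes. Relative levels do not tell fewer member transcripts per cell from a larger total. The median UMIs per cell were 5065, 7528, 11860 and 8026 in the class and 5559, 6091, 5626 and 6262 in the other cells, higher in the class in 3 of 4 libraries. The mean UMIs per cell were higher in the class in every library. In Plzf +/+ plate 1, where the median was lower, 10 class cells held 81756 UMIs and 307 other cells 2047666. The mean UMIs of members per cell were 398, 518, 572 and 527 against 519, 531, 527 and 666, lower in the class in 3 of 4 libraries and higher in Plzf +/+ plate 4.

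The share of UMIs in the 80 genes was 4.86%, 4.23%, 3.54% and 4.68% in the cells rich in spermatid transcripts, against 7.79%, 7.23%, 8.24% and 8.20% in the other cells of the same 4 libraries. The groups did not overlap. The mean difference was -3.54 percentage points (SD 0.818, n = 4 libraries), with an exact sign-flip permutation p of 0.125, the smallest that 4 libraries allow. With the spermatid markers taken out of the total it was -3.37. In the fits, the fold changes were higher than the plain ratios of CPM by a median of 0.32 on the log2 scale over the 29 members at 1000 CPM or more. The fits use edgeR's TMM factors and CPM does not, and the cause of this gap was not tested. The direction of the family was the same on both scales.

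Rps3, a protein of the small subunit at the entry of the messenger RNA, had the smallest p. It was at 2032, 1788, 1892 and 2016 CPM in the other cells and at 942, 748, 532 and 897 CPM in the cells rich in spermatid transcripts, without overlap. The log2 fold change was -1.02 (SE 0.188, edgeR adjusted p = 5.13e-05). In the large subunit Rpl14 fell by 0.89 on the log2 scale (SE 0.186, edgeR adjusted p = 0.000272), from 2182 ± 203 to 979 ± 323 CPM (SD, n = 4).

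Of the stalk proteins, Rplp1 and Rplp2 fell. Rplp2 was at 2918, 2546, 2855 and 2978 CPM in the other cells and at 1456, 1287, 992 and 1533 CPM in the class (log2 fold change -0.79, edgeR adjusted p = 0.000729), and Rplp1 went from 3105 ± 176 to 1552 ± 228 CPM (-0.69, adjusted p = 0.00275). Rplp0, the third stalk protein, was at 1563, 1326, 1463 and 2078 against 1052, 1007, 811 and 1393 CPM and did not pass (-0.27, adjusted p = 0.261). Rpsa fell by 0.78 and Rps19 by 0.70 on the log2 scale.

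Further calls with a small p were Rps21 (log2 fold change -0.84), Rps2 (-0.87), Rpl4 (-0.79), Rpl34 (-0.82), Rps10 (-0.74), Rpl13a (-0.68) and Rpl6 (-0.81). Over the 35 called members the changes ran from -0.48 to -1.28, the latter in Rpl7a, which was under 50 CPM.

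The fitted log2 fold change was above 0 in 7 members, none past the test: Rpl41, Rpl39l, Rpl36, Rpl10l, Rps12, Rpl9 and Rps6. In plain CPM, which is not scaled by the TMM factors, the class mean was below that of the other cells in Rpl39l, Rpl36, Rpl10l and Rpl9, and Rpl36 was lower in 4 of 4 libraries. Rpl41 was at 1686, 1408, 1883 and 1837 CPM in the other cells and at 2642, 1371, 1609 and 1543 CPM in the class, where Plzf +/+ plate 1 alone was higher (log2 fold change 0.35, edgeR adjusted p = 0.149). Rpl39l and Rpl10l each had a log2 fold change of 0.26 (adjusted p 0.344 and 0.379) and higher CPM in 2 of 4 libraries. The X-linked Rps4x (-0.54, adjusted p = 0.0681), Rpl39 (-0.48, 0.0967) and Rpl36a (-0.63, 0.177) had lower CPM in all 4 libraries without passing.

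The class also carried other transcripts. The spermatid list was at 25420 to 46150 CPM against 253 to 858 in the other cells, the spermatocyte list at 2764 to 7023 against 1201 to 2447, and the list of undifferentiated spermatogonia at 1149 to 1365 against 2235 to 2322. The Sertoli list was at 223 to 1173 against 48.8 to 485 CPM, and its part in the result was not tested. Without Plzf +/+ plate 4, which had the lowest share, 18 members were called, and without Plzf lu/lu plate 3 22, all lower, where 4.28% and 8.90% of all genes were lower.

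Other genes of protein synthesis were counted by list, without a test between lists. Of 35 ribosome assembly genes 13 fell, with Nhp2 and Dkc1 of the box H/ACA particles at -1.10 and -1.42, Ncl (nucleolin) at -0.73, Nop16 at -1.01 and Nip7 at -0.87, and 1 rose (Wdr12, 0.95), with a median of -0.62. Of 40 translation factors 5 rose (Eif1 1.26, Eif4h 1.39, Pabpc1 0.82, Eif5 0.80 and Btf3 0.95) and 5 fell (Eef1b2 -0.84, Eif3j1 -0.94, Eif3i -0.66, Eif3l -0.66 and Eif4ebp1 -0.75), with a median of -0.06, where 22.9% of all genes rose and 10.8% fell. Of 75 mitochondrial ribosomal protein genes 12 fell and 2 rose (median -0.40), and of 7 related symbols 3 fell: Gnb2l1, whose product sits on the small subunit, Rps3a1 and Rpl22l1.

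**Figure D4:**
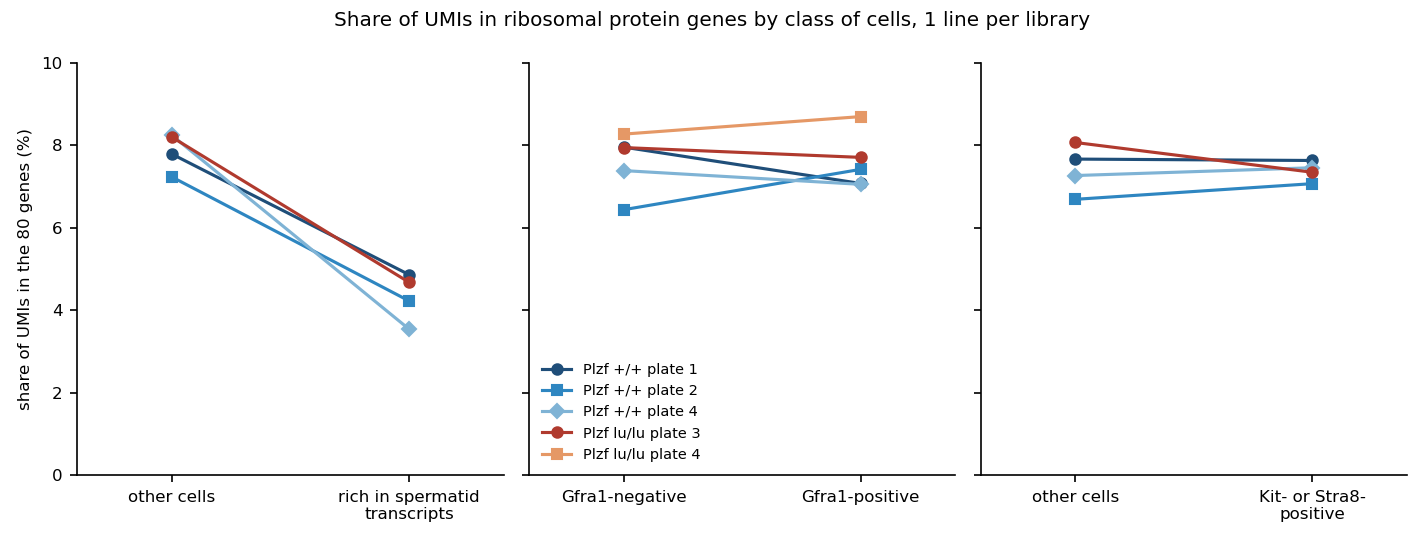
Share of UMIs in the 80 ribosomal protein genes (%, axis from 0) in classes of cells, 1 line per library joining the other cells to the class. All 4 lines fall for cells rich in spermatid transcripts, from between 7.23% and 8.24% to between 3.54% and 4.86%, and the lines for Gfra1-positive and for Kit- or Stra8-positive cells go in both directions.

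An alternative class took cells in which Ldhc, the lactate dehydrogenase of spermatocytes and spermatids, held at least 0.1% of the UMIs. It was wider, with 155 cells, of which 15, 55, 43 and 39 lay in the same 4 libraries. In this class 50 of 78 members fell and 2 rose, against 22.5% and 31.7% of all 11305 genes. The median was -0.51 over members and -0.08 over all genes. As plain ratios of mean CPM the members had a median of -0.91 on the log2 scale, and over the 30 members at 1000 CPM or more the fitted changes were higher than the ratios of CPM by a median of 0.41. All 35 members called in the narrower class were among the calls.

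The 2 members that rose were the autosomal copies Rpl10l and Rpl39l. Rpl10l was at 173, 197, 174 and 180 CPM in the other cells and at 246, 345, 246 and 283 CPM in the class. Every class value lay above every value of the other cells, and the log2 fold change was 1.04 (SE 0.142, edgeR adjusted p = 2.54e-07), while the plain ratio of mean CPM was 0.63 on the log2 scale.

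Rpl39l was at 506, 657, 618 and 682 CPM in the other cells and at 580, 992, 869 and 887 CPM in the class (log2 fold change 0.84, SE 0.129, edgeR adjusted p = 2.22e-06), with a plain log2 ratio of 0.43. It was higher in 4 of 4 libraries, though the class value of Plzf +/+ plate 1 lay within the range of the other cells. The coding sequences above differ within each pair, but the reads came from the 3′ ends, where 0% of the windows of Rpl39l and 39.0% of those of Rpl10l were repeated.

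Of the X-linked members Rps4x, Rpl39 and Rpl36a fell in the same class, and Rpl10 had too few UMIs to be tested. Most members fell in this class, with a median log2 fold change of -0.51 over the 78 tested. Rps4x was at 311, 304, 271 and 622 CPM in the other cells and at 173, 152, 84.1 and 297 CPM in the class (log2 fold change -0.75, edgeR adjusted p = 0.000111). Rpl39 was at 220, 243, 325 and 604 against 213, 117, 194 and 220 CPM (-0.48, adjusted p = 0.0355), and Rpl36a had a log2 fold change of -0.99 (adjusted p = 0.00204). Over 426 X-linked genes 159 fell and 67 rose, with a median of -0.55.

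In this class the pair of Rpl39 and Rpl39l shifted toward the copy. Rpl39l held 69.7%, 73.0%, 65.5% and 53.0% of the UMIs of the pair in the other cells and 73.1%, 89.4%, 81.7% and 80.1% in the class. The share was higher in the class in each of the 4 libraries, and by the smallest step in Plzf +/+ plate 1, where the class held 32 UMIs of Rpl39 and 87 of Rpl39l. In the narrower class of cells rich in spermatid transcripts the share went from 70.0%, 77.8%, 67.6% and 57.2% in the other cells to 68.9%, 86.6%, 85.8% and 63.5%, so that Plzf +/+ plate 1, with 14 UMIs of Rpl39 and 31 of Rpl39l in the class, did not follow. Of Rpl10 the wider class held at most 2 UMIs in a library, too few to read a shift in its pair. With the spermatid markers at 0.2% or more as the limit (145 cells), Rpl39l and Rpl10l were again the members that rose, by 0.74 (edgeR adjusted p = 3.06e-05) and 0.71 (adjusted p = 0.000524), and 49 fell, against 30.1% and 17.6% of all genes. With a limit of 2% no member rose. These classes share cells and are not independent of each other.

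Kit and Stra8 are switched on as spermatogonia begin to differentiate. Cells with a UMI of either after thinning to 2000 UMIs were compared with the others in 4 libraries, 54, 43 and 24 against 253, 233 and 227 cells in Plzf +/+ and 62 against 242 in Plzf lu/lu plate 3. Of 78 members 1 fell, Rpl39, and 1 rose, Rps27l, where 4.04% of all 11186 genes were called, 2.27% lower and 1.77% higher.

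Rpl39 was at 233, 214, 282 and 583 CPM in the other cells and at 142, 99.7, 148 and 343 CPM in the Kit- or Stra8-positive cells, lower in each library, with a log2 fold change of -0.86 (SE 0.118, edgeR adjusted p = 0.000594). The call was kept in 10 of 11 alternatives, between -0.97 and -0.63, and lost without the library as a block. The row Rpl39-ps fell with it (-1.99, edgeR adjusted p = 0.0470).

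Rps27l was at 217, 217, 203 and 325 CPM in the other cells and at 314, 327, 274 and 418 CPM in the class, higher in each library, with a log2 fold change of 0.47 (SE 0.106, edgeR adjusted p = 0.0157). This call was kept in 5 of 11 alternatives, again with that same fit counted under both names. It was lost in DESeq2 (adjusted p = 0.0947), and in edgeR without a filter on low counts (0.0623) or with the class taken from all UMIs (0.0514). In edgeR it was also lost without Plzf +/+ plate 1 (0.151) or plate 4 (0.0821) and without the library block (0.423). Its log2 fold change stayed between 0.36 and 0.52.

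The copy Rpl39l was not called. It was at 534, 797, 690 and 759 CPM in the other cells and at 417, 612, 764 and 588 CPM in the class (log2 fold change -0.25, edgeR adjusted p = 0.174), lower in 3 of 4 libraries as Rpl39 was in all 4. Without a filter on low counts it was called lower (-0.37, edgeR adjusted p = 0.00412), and in the other 10 alternatives it was not. Rpl39l held 69.6%, 78.9%, 71.0% and 56.6% of the UMIs of the pair in the other cells and 74.7%, 86.0%, 83.8% and 63.2% in the class, a higher share in 4 of 4 libraries, as in the cells with Ldhc. Rps4x was lower in 3 of 4 libraries (-0.43, adjusted p = 0.0997). It was called lower in 3 of 11 alternatives, without a filter on low counts (-0.54, edgeR adjusted p = 0.000604), with the class taken from all UMIs (-0.49, 0.0163) and without Plzf +/+ plate 2 (-0.62, 0.00514). Rplp2, Rplp0 and Rpl22 were higher in 4 of 4 libraries by 0.18, 0.20 and 0.24 without passing the test (adjusted p 0.135, 0.148 and 0.0963).

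Over the family, the result for Kit- or Stra8-positive cells depended on how the class was taken. The median log2 fold change was -0.03 against -0.01 over all genes, with 10 members higher and 10 lower in every library, where 12.1% and 13.8% of all genes were. The share of UMIs differed by -0.0467 percentage points (SD 0.481, n = 4, exact sign-flip permutation p = 0.875), and by -0.484 without the cells rich in spermatid transcripts, lower in 4 of 4 libraries (exact p = 0.125, the smallest that 4 libraries allow). With the class taken from all UMIs of a cell, the share was lower in 5 of 5 libraries, by -0.775 percentage points (SD 0.476, exact sign-flip permutation p = 0.0625, the smallest that 5 libraries allow), and 9 of 77 members were called, all lower, where 0.828% of all genes were lower. The spermatid list was at 134 to 3135 CPM in the class and at 2455 to 8690 CPM in the other cells, so it moved with this comparison. The Sertoli list was at 5.70 to 190 against 80.6 to 633 CPM. The share without the cells rich in spermatid transcripts is given above, and the part of the Sertoli list was not tested. Of other genes of translation in the main fit, 4 assembly genes rose (Ncl 0.49, Nhp2 0.49, Nip7 0.44 and Npm1 0.28) and none of the 35 fell. Of 40 translation factors 4 rose (Eif5a 0.45, Eef1d 0.44, Eif4ebp1 0.74 and Eif1ax 0.45) and Etf1 fell (-0.51). Of all genes 1.77% rose and 2.27% fell. None of 75 mitochondrial ribosomal protein genes was called, and 14 had an unadjusted p under 0.05, where 18.2% of all genes did.

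**Figure D5:**
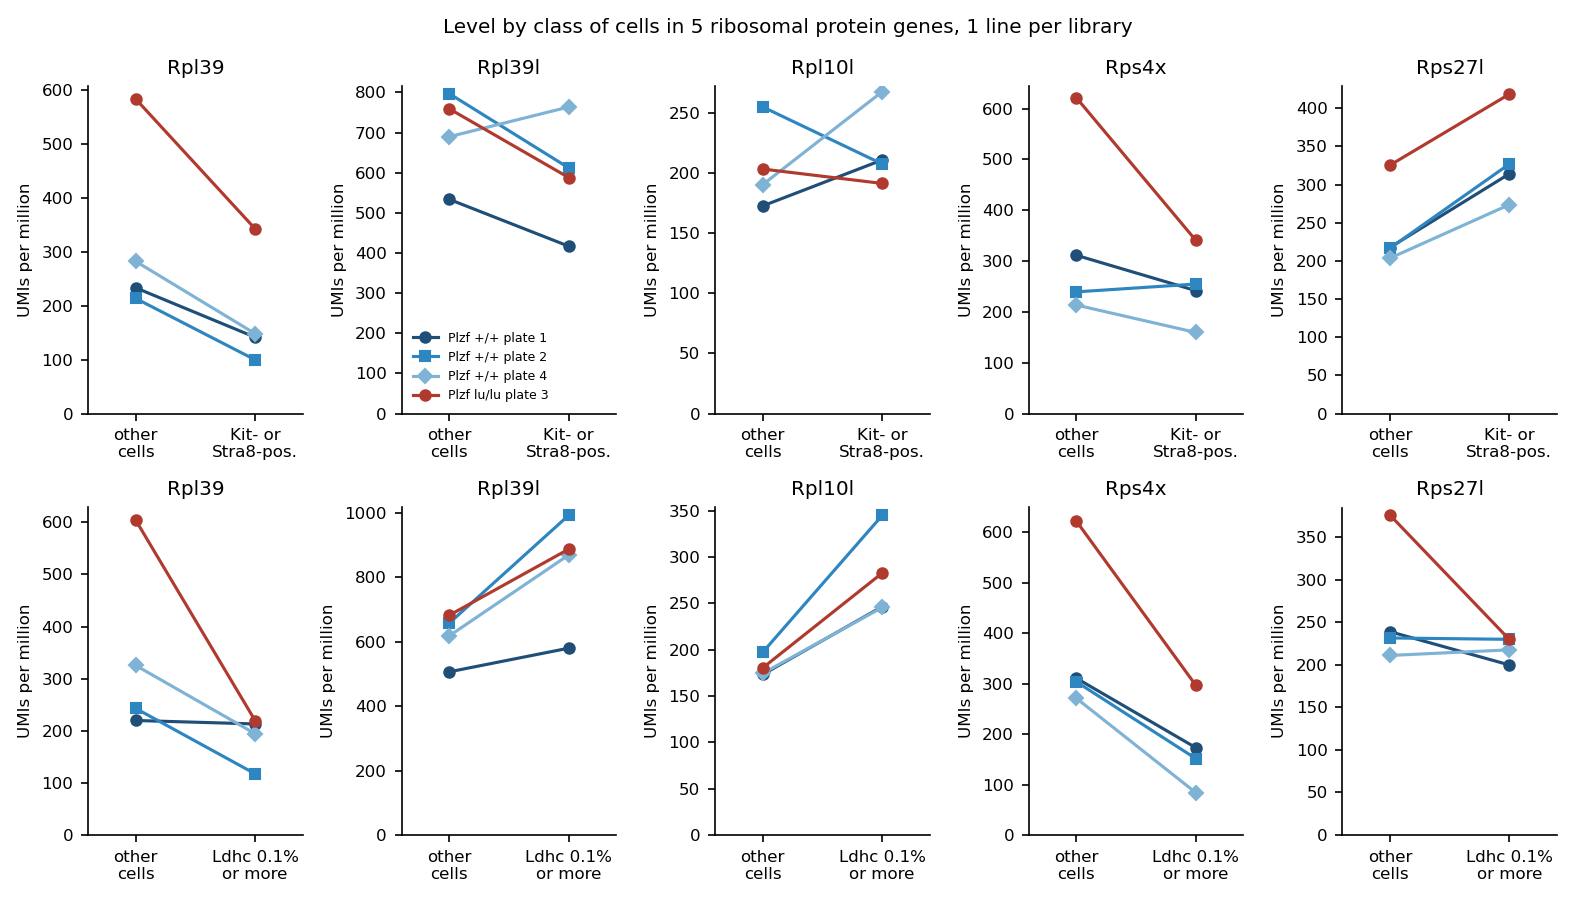
Level in CPM (axes from 0) of 5 ribosomal protein genes in Kit- or Stra8-positive cells (top row) and in cells with Ldhc at 0.1% or more (bottom row), 1 line per library from the other cells to the class. Rpl39 falls in all lines of both rows, Rps27l rises in all lines of the top row, and Rpl39l and Rpl10l rise in all lines of the bottom row.

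Gfra1 encodes the receptor for GDNF and marks undifferentiated spermatogonia. Gfra1-positive and Gfra1-negative cells, again after thinning, were compared in all 5 libraries (109, 104, 81, 49 and 6 against 198, 172, 170, 255 and 23 cells). Of 75 members tested 1 was called, Rpl41, and it was lower in Gfra1-positive cells, where 1.54% of all 9588 genes were called, 0.897% lower and 0.647% higher.

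Rpl41, the shortest protein of the ribosome, was at 1853, 1427, 1883, 1869 and 2513 CPM in Gfra1-negative cells and at 1449, 1349, 1643, 1514 and 1768 CPM in Gfra1-positive cells. It was lower in 5 of 5 libraries, though the ranges of the classes overlap between libraries, and the log2 fold change was -0.36 (SE 0.0803, edgeR adjusted p = 0.0354). The call was kept in 6 of 12 alternatives, and was lost without Plzf +/+ plate 4 (adjusted p = 0.0692), Plzf lu/lu plate 3 (0.211) or Plzf lu/lu plate 4 (0.0781).

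Rps27l and Rpl39 had signs opposite to those in Kit- or Stra8-positive cells, without passing the test. Rps27l was lower in 5 of 5 libraries, at 261, 243, 214, 371 and 350 CPM in Gfra1-negative and 184, 214, 199, 235 and 133 CPM in Gfra1-positive cells (log2 fold change -0.51, edgeR adjusted p = 0.0743). Rpl39 was higher in 5 of 5 libraries, at 199, 180, 248, 520 and 396 against 250, 230, 320, 567 and 545 CPM (0.24, adjusted p = 0.214). Cells of these comparisons are largely the same, so the signs are not independent of each other.

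The median over members was -0.10, with 60 of 75 below 0, against 0.00 over all genes. This lean depended on the scale, since in plain CPM the mean of the Gfra1-positive cells was lower in 44 and higher in 31 of the 75 members, with a median log2 ratio of -0.03. In every library 2 members were higher and 2 lower, against 11.8% and 5.36% of all genes. The share of UMIs differed by -0.00991 percentage points (SD 0.722, n = 5, exact sign-flip permutation p = 1) and ranged from -0.882 in Plzf +/+ plate 1 to 0.979 in Plzf +/+ plate 2. The spermatid list was at 362 to 3574 CPM in Gfra1-positive and at 2009 to 11522 CPM in Gfra1-negative cells, and the Sertoli list at 58.2 to 265 and 87.0 to 631 CPM, whose part was not tested. Without the cells rich in spermatid transcripts, the share differed by -0.414 percentage points (lower in 4 of 5 libraries, exact sign-flip permutation p = 0.188), and 11 of 75 members were called lower in Gfra1-positive cells, where 4.02% of all genes were, among them Rpl41, Rps27l (-0.59, edgeR adjusted p = 0.000993), Rplp0 (-0.27), Rpl22 (-0.29), Rps10, Rps19, Rps26, Rpl26 and Rpl35a. In the main fit Eif1, of 39 translation factors, fell (-0.42), where 0.897% of all genes did. No assembly gene or mitochondrial ribosomal protein gene was called, with 5 and 4 at an unadjusted p under 0.05, where 16.5% of all genes were.

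Whether these class differences were unlike in Plzf lu/lu and Plzf +/+ was tested by an interaction term in the same edgeR fits, which rests on 1 Plzf lu/lu library, or 2 for Gfra1. No member was called, of 78 for cells rich in spermatid transcripts, 75 for Gfra1 and 78 for Kit or Stra8. At an unadjusted p under 0.05 there were 0, 2 and 11 members, against 5.93%, 2.27% and 7.07% of all genes, and the lowest adjusted p were 0.943, 1.00 and 0.466. The median interaction term over members was -0.13, -0.02 and -0.20 on the log2 scale, against -0.13, -0.01 and -0.01 over all genes.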

How the data were processed

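The authors deposited UMI counts per gene and cell for each genotype, made from 3′ reads with bcl2fastq 2.18.0.12, Picard 2.9.3 and STAR 2.5.4a on build GRCm38 (submitters' processing notes); these counts are whole numbers and not normalized. Cells were given to libraries by plate, and plate 4 cells to the genotype of the table that held them (5 cells lay outside the labelled wells). All columns were used (0 left out). Doublets were not called, since cells were sorted singly; 24 cells over 4 times the median UMIs were left out in an alternative.

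Counts were summed per library, or per library and class with at least 5 cells in each, and fitted with edgeR 4.0.16 (limma 3.58.1, R 4.3.3): filterByExpr, TMM, robust quasi-likelihood test, Benjamini-Hochberg adjustment over all genes tested, threshold 0.05. SE is the log2 fold change divided by the root of its F statistic. Class fits held the library as a block. Shares were tested by exact permutation in Python 3.11.15. DESeq2 1.42.0 was an alternative, and the fit was tested on simulated data. Intervals and floors cover counting error only.

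Positions and start windows came from RefSeq (GRCm38.p6), coding sequences and 3′ ends from GENCODE vM1 on NCBIM37, from which no coordinate was taken. Named genes were members called (up to 15 per direction by smallest p), the 5 highest and 5 lowest with UMIs in all libraries, X-linked members and copies, members with roles of their own, and members with the largest -ps shares. A few genes that the rule would name are not reported here. Rpl22, Rps7, Rps13, Rps20, Rps28 and Rps15a were named after their values were seen. Members and lists were chosen with earlier results of these data known. The cells without 3 or more Sertoli UMIs were an alternative chosen after seeing the data.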

Additional observations from a re-analysis of the deposited data

Results flagged for a closer look

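Over the comparisons of classes of cells, 41 series of 4 or 5 library differences (the log2 ratio of CPM plus 10 of each called member, and the share of UMIs) were looked at for a library that stood apart. It was found in 4, all in cells rich in spermatid transcripts against the other cells. The gap of the farthest library to its nearest neighbour, as a part of the whole range, was 0.908 for Rpl32, 0.919 for Rplp2, 0.961 for Rpl13a and 0.936 for Rps10, above the limit of 0.829 for 4 values. In each of these genes the library was Plzf +/+ plate 4, where Rpl13a went from 2759 to 1007 CPM and Rpl32 from 3464 to 1461 CPM. Chance flags about 1 in 20 such series, and these genes share their libraries. In the other 3 libraries all 4 genes were lower in the class as well.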

How the results depend on the processing

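No paired analysis was possible because only plate 4 held both genotypes. Class comparisons had the library as a block. Without it Rpl41 (Gfra1), Rpl39 and Rps27l (Kit or Stra8) were not called, giving 0 members each. Of all genes only 0.0104% (Gfra1) and 0.0179% (Kit or Stra8) were called in these fits. In cells rich in spermatid transcripts 34 members fell without the block, where 34.4% of all genes were called, 11.3% lower. Of the values for single genes, 491 kept direction and side of the threshold, 96 lost the call, 29 gained it and 0 reversed.

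Counts of members called are given with the share of all genes called in the same fit. Between genotypes (2, 0.816%) they were 6 without a filter on low counts (4 higher, 2 lower, 2.27%), 6 without cells over 4 times the median UMIs (5.02%), 6 with cells thinned (4.13%), 1 without Sertoli-rich cells (0.470%) and 1 with -ps UMIs added (0.744%; Rps4x in both), and 0 to 12 with a library left out (0.00695% to 10.2%). The -ps rows called (1) were 2 with DESeq2 size factors (0.983%), 5 without a filter, 2 without cells rich in spermatid transcripts (2.86%), 3 without cells over 4 times the median, 3 with cells thinned, and 1 to 10 with a library left out. For cells rich in spermatid transcripts (35, 33.7%) the count was 57 without a filter (21.9%), 23 at 2% (23.8%), 22 in Plzf +/+ alone (31.9%) and 18 to 36 with a library left out (22.8% to 35.2%). For Gfra1 (1, 1.54%) it was 2 in DESeq2 (1.87%), 2 without a filter (3.47%), 0 with the class from all UMIs (0.198%), 11 without cells rich in spermatid transcripts (5.94%), 0 in Plzf +/+ alone (0.0454%) and 0 to 6 with a library left out (0.270% to 2.56%). For Kit or Stra8 (2, 4.04%) it was 1 in DESeq2 (1.39%), 13 without a filter (0 higher, 3.56%), 9 with the class from all UMIs (1.29%), 4 without cells rich in spermatid transcripts (2.08%), 4 in Plzf +/+ alone (4.76%) and 1 to 5 with a library left out (0.994% to 4.76%). The share difference changed sign for Kit or Stra8 in Plzf +/+ alone (0.178; -0.189 to 0.178 with a library left out) and for Gfra1 without Plzf +/+ plate 1 (0.208), Plzf +/+ plate 4 (0.0710) or Plzf lu/lu plate 3 (0.0471), in a range of -0.257 to 0.208. Between genotypes it was 0.651 to 1.18 with a library left out. The cause was not tested. With 2 Plzf lu/lu libraries, 1 of them of 38 cells, a member not called between genotypes may still differ.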
